A study of Arabidopsis thaliana with 12 samples.

Results

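The effect of sulfamethoxazole (SMX) that is shared between seedlings raised without sucrose and seedlings raised with it was taken as the mean of 2 differences: SMX minus untreated on sucrose-free medium, and sucrose plus SMX minus sucrose alone. All 12 arrays of the series entered it, 6 with SMX and 6 without, with the sucrose level as a factor. The plants were wild-type Arabidopsis thaliana of the Columbia ecotype, grown in liquid MS medium and harvested whole when labelled 3 days old. The 4 groups had 3 biological replicates each: 0.2 µM SMX, no addition, 10 mM sucrose with 0.2 µM SMX, and 10 mM sucrose. Roots, hypocotyls and cotyledons were not separated, so that fewer cells of a type and less RNA per cell cannot be told apart in any value below.

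SMX is a sulfonamide. It competes with p-aminobenzoate for dihydropteroate synthase, an enzyme of folate synthesis that plants and bacteria have and animals lack. Folates carry the one-carbon units used to make purines, thymidylate and methionine, so the pathway feeds DNA synthesis and methylation in growing tissue. Sucrose is both a carbon source and a signal for seedlings, and it changes the levels of many transcripts by itself, which is why each SMX difference was taken within a sucrose level.

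Each value is a log2 expression value of 1 probe set on 1 array, where a difference of 1 is a factor of 2. The depth of an array is not a read count: the number of arrays limits the precision, and a dim probe set levels off near 2.12, the lowest value. Some probe sets called below also had exactly equal values on all 3 arrays of a group, which lowers their estimated spread. In untreated arrays these were AT5G37620 (2.39), AT1G41750 (2.58), 247165_at (3.53) and 250541_at (2.14). Others were 252269_at with sucrose alone (3.85) and AT5G40590 in SMX arrays (5.68). Of the 22746 probe sets tested, 13513 are paired with 1 gene and the other probe sets are named here by their probe set ID. Labelling quality differed strongly between the sucrose levels and little with SMX: the 3′ minus 5′ difference of the spike-in controls ranged from 2.90 to 5.73 in SMX arrays and 2.56 to 5.41 in untreated arrays, and from -0.50 to -0.037 with sucrose plus SMX and -0.52 to 0.30 with sucrose alone. Its SMX difference over both levels was 0.17 (two-sided exact permutation test within levels over 400 arrangements, p = 0.725, adjusted over 8 array measures 0.82). The first principal component, with 73.3% of the variance, separated the sucrose levels, and untreated replicate 1 and sucrose replicate 1 lay apart from the rest of their groups. Of the markers of organs that a whole seedling holds, 4 were measured. RCA (rubisco activase, of green tissue) lay between 11.2 and 12.5 on all arrays and OLEO3 (an oil-body protein of seeds) between 8.54 and 9.37, with SMX differences of -0.04 and -0.17. The root-hair expansins EXPA7 and EXPA18 are described with their family.

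Few transcripts were called for the mean SMX difference over the 2 sucrose levels, a mean that 1 level can carry. With limma and a Benjamini-Hochberg adjusted p under 0.05, 21 probe sets were called for the mean SMX difference, 0.0923% of those tested: 18 were higher with SMX (0.0791%) and 3 lower (0.0132%). At an unadjusted p under 0.05 there were 1237 (5.44%), 653 higher and 584 lower. Leaving out 1 array changed the number called to 51 without untreated replicate 1, 43 without SMX replicate 2, 40 without SMX replicate 3, 32 without untreated replicate 3 and 32 without sucrose replicate 1, and to between 14 and 31 without each of the other arrays. With untreated replicate 1 and sucrose replicate 1 both left out, 37 were called, 14 of them higher and 23 lower, and 9 of those 37 were among the 21. With the SMX effect assumed to be equal at both levels (additive model), 1 was called. With the replicate number as a block 9 were called, and as a block within each sucrose level 0. The size was small for most transcripts: of the 12799 probe sets with a mean of at least 5, 400 (3.13%) had a mean SMX difference of at least 0.5 in either direction and 37 one of at least 1.

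For most of the 21 the SMX difference was not of equal size at both sucrose levels. The SMX difference had the same sign at both levels for 17 of them, against 48.1% of probe sets with a mean of at least 5. In 10 the arrays did not overlap, in the same direction, at both levels, against 0.444% of all probe sets. An unadjusted p under 0.05 at both levels with the same sign was found for 9, against 79 of all 22746 probe sets. The 21 were selected by the mean difference on these same arrays, so these counts are no separate support for a shared effect. The difference was larger on sucrose medium for 16 and on sucrose-free medium for 5. The direct test of the difference between the levels was past the threshold for 12 of the 21 (20 at an unadjusted p under 0.05), against 16 (0.0703%) and 1391 (6.12%) of all probe sets. As single contrasts of the same fit of all 12 arrays, 19 probe sets were called for SMX against untreated (0.0835%) and 43 for sucrose plus SMX against sucrose (0.189%). These counts also moved with single arrays, between 9 (without sucrose plus SMX replicate 3) and 70 (without SMX replicate 3) on sucrose-free medium, between 26 (without sucrose replicate 2) and 52 (without sucrose plus SMX replicate 2) on sucrose medium, and between 7 (without sucrose replicate 2) and 48 (without SMX replicate 3) for the difference between levels.

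Only AT2G16630 and AT1G76590 were called at each level by itself as well as for the mean. AT2G16630 had log2 values of 9.06, 9.23 and 9.49 in SMX arrays, against 7.97, 8.03 and 7.96 in untreated arrays. With sucrose plus SMX it had 9.85, 9.71 and 9.83, against 8.54, 8.41 and 8.04 with sucrose alone. Every SMX array was above every array without SMX, also across the sucrose levels. The mean SMX difference was 1.37 (SE 0.0968, adjusted p = 0.0017), with 1.28 on sucrose-free medium (adjusted p = 0.0166) and 1.47 on sucrose medium (adjusted p = 0.00611). The difference between these sizes was 0.19, with a 95% interval of -0.25 to 0.63. AT2G16630 was the only probe set called when the SMX effect was assumed to be equal at both levels (additive model, 1 called).

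AT1G76590 fell with SMX at both levels. Its values were 5.32, 5.34 and 5.45 in SMX arrays, against 6.20, 6.14 and 6.18 in untreated arrays, and 4.97, 4.88 and 4.85 with sucrose plus SMX, against 5.26, 5.28 and 5.18 with sucrose alone. The groups did not overlap at either level. The mean SMX difference was -0.57 (SE 0.0313, adjusted p = 0.000463), made of -0.80 and -0.34, and the fall was smaller on sucrose medium by 0.46 (95% interval 0.32 to 0.60, adjusted p of that difference 0.0602). When only probe sets with a mean above 4 were tested, its adjusted p was 0.061.

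**Figure D1:**
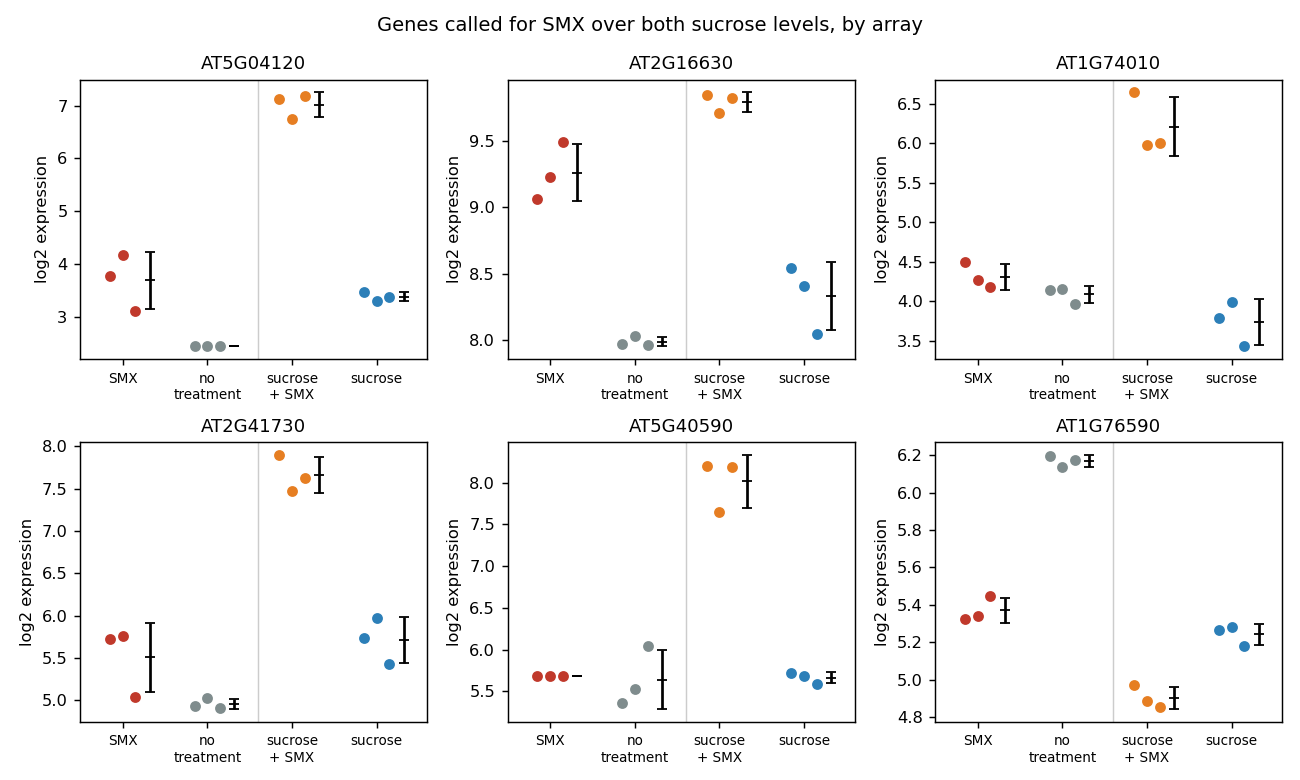
Log2 expression value of each gene called for the mean SMX difference under the naming rule, by array; points are single arrays and black bars are means ± SD of 3 arrays, with the SMX group left of its counterpart at each sucrose level. AT2G16630 is higher by 1.28 and 1.47 with SMX and AT1G76590 lower by 0.80 and 0.34, while AT5G40590 differs on sucrose medium alone (0.04 and 2.35).

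AT5G04120 had the largest mean SMX difference among the called genes with a mean of at least 5 and the same sign at both levels. It had 3.79, 4.18 and 3.12 in SMX arrays, against 2.45, 2.45 and 2.46 in untreated arrays. With sucrose plus SMX it had 7.12, 6.74 and 7.18, against 3.47, 3.30 and 3.38 with sucrose alone. The SMX arrays were higher at both levels with no overlap, and the untreated arrays lay close to the lowest value. The mean difference was 2.44 (SE 0.165, adjusted p = 0.0016). On sucrose-free medium it was 1.24 (adjusted p = 0.273) and on sucrose medium 3.63 (adjusted p = 0.00142), a difference between levels of 2.38 with a 95% interval of 1.63 to 3.13 (adjusted p = 0.0602).

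The other 3 named rises came mainly from sucrose medium. AT1G74010 had 4.50, 4.27 and 4.18 in SMX arrays, against 4.15, 4.16 and 3.97 in untreated arrays, and 6.64, 5.98 and 6.01 with sucrose plus SMX, against 3.79, 4.00 and 3.43 with sucrose alone. Its groups stood apart at both levels, but the SMX difference was 0.22 without sucrose and 2.47 with it (mean 1.35, SE 0.142, adjusted p = 0.0164). Without untreated replicate 2 its adjusted p was 0.053. AT2G41730, whose probe set may also bind related transcripts by its ID suffix, had 5.73, 5.76 and 5.04 in SMX arrays, against 4.93, 5.02 and 4.91 in untreated arrays, and 7.90, 7.47 and 7.62 with sucrose plus SMX, against 5.73, 5.97 and 5.43 with sucrose alone. SMX arrays were again higher at both levels, by 0.55 and 1.95 (mean 1.25, SE 0.15, adjusted p = 0.0279). This call held in 4 of 12 fits that left out 1 array, with an adjusted p of up to 0.085 in the others (without sucrose plus SMX replicate 3), and the 8 arrays behind the losses were SMX replicate 1, untreated replicates 2 and 3, sucrose plus SMX replicates 1, 2 and 3, and sucrose replicates 1 and 3. AT5G40590 had 5.68 on each of the 3 SMX arrays, inside the untreated range of 5.36 to 6.04, and 8.20, 7.65 and 8.19 with sucrose plus SMX, against 5.72, 5.68 and 5.59 with sucrose alone. Its mean difference of 1.20 (SE 0.134, adjusted p = 0.02) held a difference of 0.04 on sucrose-free medium, and the call was lost without untreated replicate 2 (adjusted p = 0.073), replicate 2 or 3 of sucrose alone (0.058 and 0.052), or replicate 3 of sucrose plus SMX (0.065). The files and the annotation pair none of these 6 loci with a described name.

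Genes with a known role were found among the called probe sets with lower means. CML41, picked out after its values were seen, encodes a calmodulin-like protein, of a family that binds calcium. It had 3.38, 2.97 and 2.86 in SMX arrays, against 2.20, 2.47 and 2.42 in untreated arrays, and 3.48, 4.15 and 4.20 with sucrose plus SMX, against 2.47, 2.33 and 2.37 with sucrose alone. The SMX arrays were higher at both levels, by 0.71 and 1.55, with no overlap and a difference between levels of 0.85 (adjusted p = 0.648). The mean was 1.13 (SE 0.144, adjusted p = 0.038), a call that held in 2 of 12 fits that left out 1 array, those without SMX replicate 3 or sucrose plus SMX replicate 1. UGT85A5, the called member of its gene list, encodes a UDP-glucosyl transferase, of a family that joins sugars to hormones, secondary metabolites and foreign compounds. It had 2.15 on each of the 3 SMX arrays, against 2.86, 3.15 and 3.15 in untreated arrays, and it was near the lowest value on all 6 sucrose arrays. Its mean difference of -0.45 (SE 0.0477, adjusted p = 0.0164) came wholly from sucrose-free medium (-0.90), and its adjusted p was 0.052 without sucrose replicate 2 and 0.056 without sucrose plus SMX replicate 3. On median centring the adjusted p of UGT85A5 was 0.0742.

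Of the other 13 called probe sets, all outside the naming rule, 252269_at, 250500_at, AT1G74460 and AT5G12420 had higher SMX arrays with no overlap at both levels. 252269_at, which is paired with no gene, had 4.16, 4.75 and 4.64 in SMX arrays, against 3.34, 3.21 and 3.85 in untreated arrays. With sucrose plus SMX it had 6.14, 6.08 and 5.45, against 3.85 on all 3 arrays with sucrose alone. The mean difference was 1.54 (adjusted p = 0.0177), 1.05 without sucrose and 2.04 with it. For 250500_at the mean difference was 1.63 (0.75 and 2.52, adjusted p = 0.0361), for AT1G74460 it was 1.31 (0.48 and 2.14, adjusted p = 0.0192) and for AT5G12420 it was 1.14 (0.39 and 1.90, adjusted p = 0.00428). Of 12 fits that left out 1 array, the call held in 9 for 252269_at, 4 for 250500_at, 9 for AT1G74460 and 12 for AT5G12420. AT2G23540 was higher by 1.44 (0.55 and 2.34, adjusted p = 0.038), with overlap on sucrose-free medium. The remaining 8 had most of their difference at 1 level. On sucrose medium these were 257008_at (0.44 without sucrose, 5.29 with it), 260623_at (0.02 and 3.68), AT2G43620 (0.01 and 2.92), 250541_at (-0.01 and 1.40) and 260152_at, which had 4.11, 3.92 and 4.38 with sucrose plus SMX, against 8.07, 7.49 and 7.45 with sucrose alone (-3.53) and differed by 0.27 without sucrose. On sucrose-free medium they were AT1G41750 (1.28 and 0.09), 247165_at (0.50 and near 0) and AT5G37620 (0.35 and near 0). With 1 array left out, the call held in all 12 fits for 257008_at, 260623_at and AT5G37620, in 11 for 260152_at and AT1G41750 (lost for both without untreated replicate 2), in 7 for AT2G43620, 4 for 247165_at, 3 for AT2G23540 and 2 for 250541_at. Rescaling the arrays removed some of these calls. AT5G37620 had an adjusted p of 0.521 on quantile normalization and 0.333 on median centring. For 247165_at these were 0.0722 and 0.147, and 250541_at had 0.0685 on quantile normalization.

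**Figure D2:**
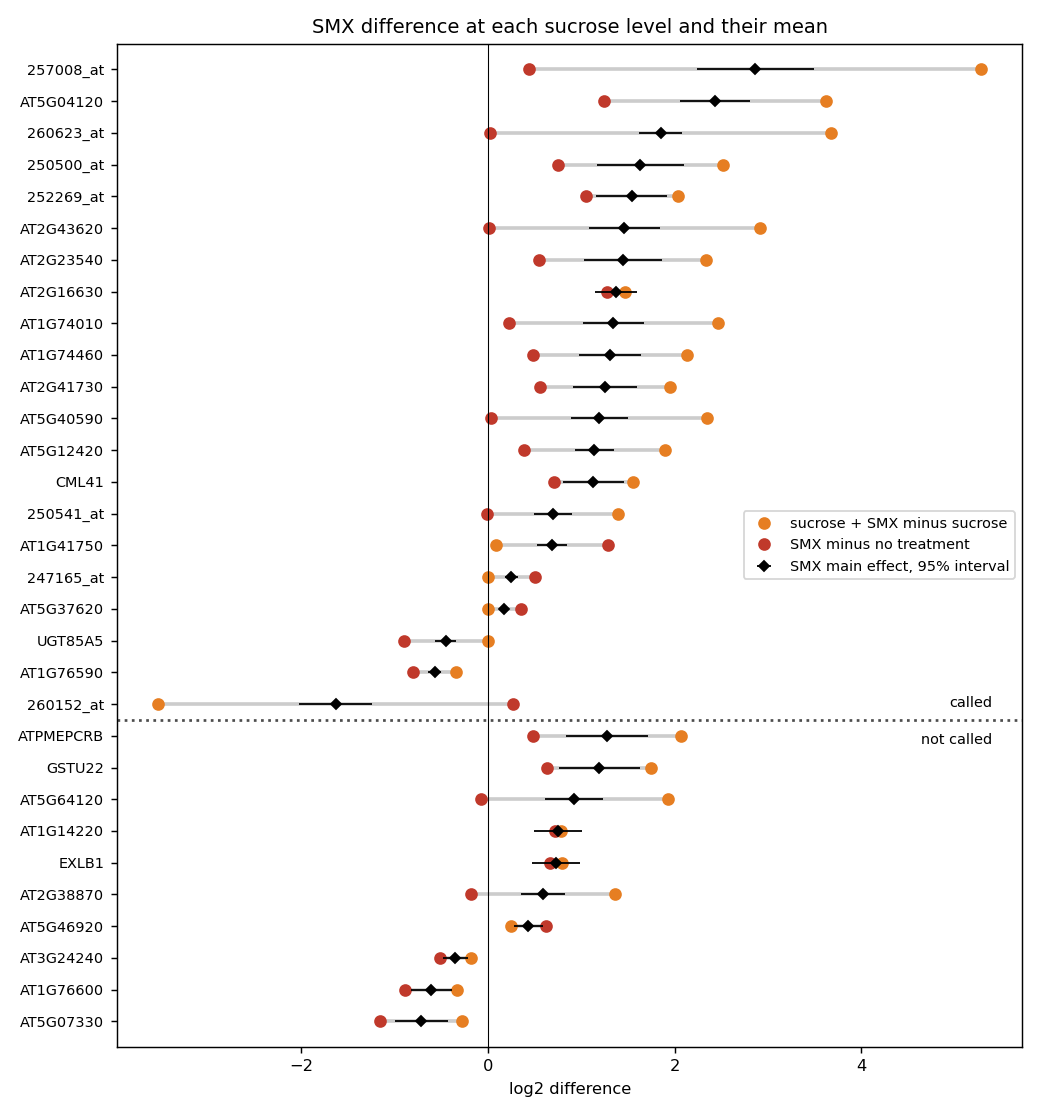
SMX difference (log2) on each sucrose level and their mean, for the 21 called probe sets above the dotted line and the 10 genes that missed the threshold below it; circles are the 2 within-level differences, diamonds the mean with its 95% interval, and grey bars join the levels. The circles lie close together for AT2G16630 (1.28 and 1.47), AT1G14220 (0.72 and 0.78) and EXLB1 (0.66 and 0.80) and far apart for 257008_at (0.44 and 5.29).

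Across the transcriptome the SMX differences at the 2 levels were close to uncorrelated. Over the 12799 probe sets with a mean of at least 5, the correlation between them was -0.068, a description across probe sets of these arrays, and 48.1% had the same sign. Their SDs were 0.321 on sucrose-free medium and 0.318 on sucrose medium. Of all 22746 probe sets tested, 79 had an unadjusted p under 0.05 at both levels with the same sign, 56 higher and 23 lower with SMX. Another 68 had it with opposite signs, of which 47 were higher without sucrose and lower with it. Arrays that did not overlap at both levels gave 101 probe sets in the same direction (0.444%), 67 higher (0.295%) and 34 lower (0.149%) with SMX. In opposite directions there were 119 (0.523%). At a single level, groups did not overlap in 7.46% of probe sets on sucrose-free medium and 9.7% on sucrose medium. Leaving out any 1 array, which makes groups of 2 that overlap less often, gave 137 to 289 in the same direction and 142 to 250 in opposite directions. Leaving out untreated replicate 1 and sucrose replicate 1 together gave 453 and 360.

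**Figure D3:**
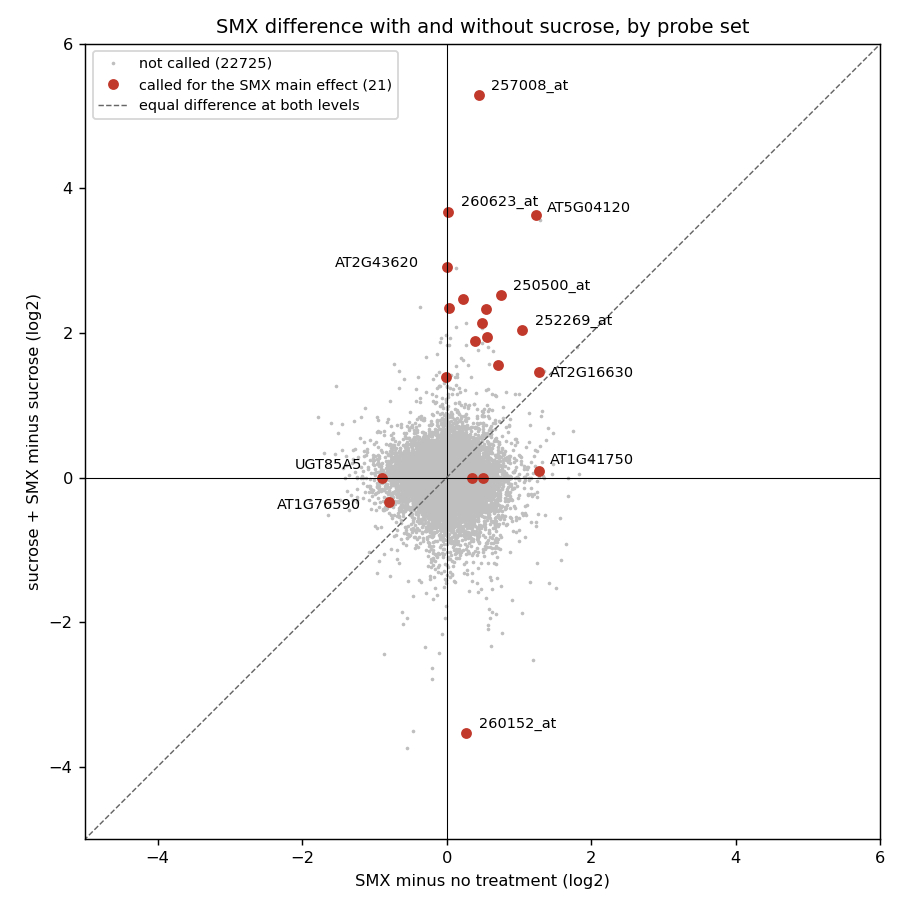
SMX minus untreated on sucrose-free medium (x axis, log2) against sucrose plus SMX minus sucrose (y axis, log2); each point is a probe set, red where called for the mean SMX difference, and the dashed line marks equal differences. Over probe sets with a mean of at least 5 the correlation was -0.068, AT2G16630 (1.28 and 1.47) lies near it, and many called probe sets lie near the y axis.

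The differences called at 1 level were set against the other level. Of the 27 probe sets that rose on sucrose medium, 21 were higher with SMX on sucrose-free medium too, with a median difference there of 0.13. Of the 16 that fell on sucrose medium, 6 were lower on sucrose-free medium, and the median difference there was 0.062. The same sign with an unadjusted p under 0.05 on sucrose-free medium was found for 9 of these 43, against 6.64% of all probe sets in either direction. Of the 19 called on sucrose-free medium, 11 had the same sign on sucrose medium and 2 of those had an unadjusted p under 0.05 there, which were AT2G16630 and AT1G76590, against 5.52% of all probe sets on that medium. The 2 differences share no array, but both were tested with the same estimate of each probe set's spread. A probe set called at 1 level therefore tends to have a lower p at the other, and these counts are not independent of the calls.

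Since fewer than 10 genes met the naming rule, the 10 genes with the smallest p that missed the threshold were also named. Of these, AT1G14220, EXLB1, AT1G76600, AT5G46920, GSTU22 and AT3G24240 had groups that did not overlap at either level. Over all probe sets, 0.444% did so in the same direction. The 10 were picked for a small p on these same arrays, which makes such a separation likely, so it adds no support of its own. AT1G14220 had 5.54, 5.54 and 5.80 in SMX arrays, against 4.79, 4.69 and 5.26 in untreated arrays, and 6.67, 6.58 and 6.46 with sucrose plus SMX, against 5.78, 5.98 and 5.60 with sucrose alone. The mean difference was 0.75 (SE 0.112, adjusted p = 0.0802), with 0.72 and 0.78 at the 2 levels and a difference between them of 0.07 (95% interval -0.44 to 0.58). Without untreated replicate 3 its adjusted p was 0.019. EXLB1 encodes an expansin-like protein, related to the expansins that loosen cell walls. It had 5.83, 5.73 and 5.53 in SMX arrays, against 5.02, 5.05 and 5.02 in untreated arrays, and 6.35, 5.87 and 6.22 with sucrose plus SMX, against 5.66, 5.10 and 5.28 with sucrose alone. The mean difference was 0.73 (SE 0.115, adjusted p = 0.0974), with 0.66 and 0.80 and a difference between them of 0.13 (95% interval -0.39 to 0.66), and without sucrose replicate 1 its adjusted p was 0.037.

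GSTU22, a tau-class glutathione S-transferase, had 8.30, 7.75 and 7.90 in SMX arrays, against 7.22, 7.37 and 7.45 in untreated arrays. With sucrose plus SMX it had 8.52, 8.38 and 8.92, against 7.15, 7.20 and 6.23 with sucrose alone. All 6 SMX arrays were above all 6 arrays without SMX, by 0.64 and 1.75 within the levels (mean 1.19, SE 0.19, adjusted p = 0.101). AT1G76600, the gene next to AT1G76590 on chromosome 1, had 7.75, 7.47 and 7.64 in SMX arrays, against 8.68, 8.33 and 8.50 in untreated arrays, and 6.47, 6.78 and 6.79 with sucrose plus SMX, against 7.21, 6.90 and 6.90 with sucrose alone. It was lower with SMX at both levels, by differences of -0.88 and -0.33 (mean -0.60, adjusted p = 0.0974). AT5G46920 was higher by 0.62 and 0.25 (mean 0.43) and AT3G24240 lower, with differences of -0.51 and -0.18 (mean -0.35). The other 4 differed mainly at 1 level. ATPMEPCRB, a pectin methylesterase of the cell wall, had a mean difference of 1.28 (0.48 without sucrose and 2.07 with it), AT5G64120, which has the peroxidase synonym PRX71, 0.92 (-0.08 and 1.92), AT2G38870 0.59 (-0.18 and 1.36) and AT5G07330 -0.72 (-1.15 and -0.28). Leaving out untreated replicate 1 brought the adjusted p to 0.042 for ATPMEPCRB, 0.0467 for AT5G64120 and 0.0398 for AT5G46920. When only probe sets with a mean above 4 were tested, GSTU22 (adjusted p = 0.02), ATPMEPCRB (0.0129) and AT5G64120 (0.0296) passed the threshold.

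The measured transcripts of the pathway that SMX inhibits showed no called change. AT4G30000, a locus listed for the target enzyme, had 5.43, 5.29 and 4.85 in SMX arrays, against 5.04, 5.20 and 5.45 in untreated arrays, and 4.03, 4.06 and 3.97 with sucrose plus SMX, against 4.67, 4.35 and 4.63 with sucrose alone. The groups overlapped without sucrose and the SMX arrays were lower with it, by differences of -0.04 and -0.53 (mean -0.29, SE 0.114, adjusted p = 0.851). AT1G69190, the other listed locus of the enzyme, was within 0.1 of the lowest value on 11 of 12 arrays, so no difference could be measured. The list of folate and one-carbon metabolism names 39 loci, most of which were not measured. Of 13 measured members of folate and one-carbon metabolism, 0 were called, 1 was higher and 1 lower at an unadjusted p under 0.05 (2.87% and 2.57% of all probe sets), and the median SMX difference was -0.037 (-0.044 without sucrose and -0.077 with it). The medians were -0.015 over 3 measured members of the methionine and methyl cycle (17 loci listed) and -0.007 over 6 of nucleotide synthesis (25 listed). In the latter, PYRB (aspartate carbamoyltransferase, of pyrimidine synthesis) had the lowest p at -0.30 (-0.50 and -0.10). The median over all probe sets was 0 for the mean difference and at each level.

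Enzyme families that can act on foreign compounds were followed because SMX is one. Of 12 glutathione S-transferases, 7 reached a mean of 5 in the SMX or the no-SMX arrays. Of the 12, 0 were called, and 3 were higher at an unadjusted p under 0.05 (GSTU22, GSTU27 and GSTU25) with 0 lower, against 2.87% and 2.57% of all probe sets. The mean difference was positive for 10, among them GSTU15 and GSTU21, within 0.1 of the lowest value on 11 of 12 arrays, and GSTU23, with means of 2.13. The share of positive differences over all probe sets was not counted. GSTU27 had 10.39, 10.46 and 10.30 in SMX arrays, against 9.57, 10.19 and 10.22 in untreated arrays, and 10.31, 10.39 and 10.45 with sucrose plus SMX, against 9.87, 9.68 and 9.49 with sucrose alone. Its SMX arrays were higher at both levels with no overlap, by 0.39 and 0.70 (mean 0.55, adjusted p = 0.299). GSTU25 was higher on sucrose medium (1.42) and not without it (-0.14). The family median was 0.16, with 0.21 on sucrose-free and 0.007 on sucrose medium. Of 43 UDP-glycosyltransferases, UGT85A5 was the 1 called and the median was 0, and of 24 cytochromes P450, 0 were called and the median was 0.022. Only 16 of the 43 and 6 of the 24 reached a mean of 5 in the SMX or the no-SMX arrays. Several other members of both families lay at the lowest value with a difference of 0, so these medians say little about a change.

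Genes of the cell wall gave single members with large differences and no common direction. Of 19 expansins, 0 were called, 2 were higher (EXLB1 and EXPA18) and 1 lower (EXPA8) at an unadjusted p under 0.05, against 2.87% and 2.57% of all probe sets, and the median was -0.11. EXPA18, which acts in root hairs, had 5.46, 4.66 and 5.34 in SMX arrays, against 4.66, 4.55 and 3.77 in untreated arrays, and 9.26, 9.46 and 9.66 with sucrose plus SMX, against 7.96, 8.27 and 8.61 with sucrose alone. It was higher with SMX by 0.83 and 1.18 (mean 1.01, SE 0.21, adjusted p = 0.271). EXPA7, also a root-hair expansin, differed by -0.29 without sucrose and 1.18 with it, and the summed level of the 2 root-hair markers was 5.16 to 5.70 in SMX arrays, 4.65 to 5.20 in untreated arrays, 9.54 to 9.94 with sucrose plus SMX and 8.23 to 8.95 with sucrose alone. The part of root hairs in the wall genes' differences was not tested. EXPA8 ran the other way, with 6.10, 6.02 and 5.53 in SMX arrays, against 7.68, 6.59 and 6.25 in untreated arrays, and 7.57, 8.84 and 8.82 with sucrose plus SMX, against 9.35, 9.80 and 10.03 with sucrose alone. Its SMX arrays were lower at both levels with no overlap, by differences of -0.96 and -1.32 (mean -1.14, SE 0.32, adjusted p = 0.501). Of 10 xyloglucan endotransglucosylases, which cut and rejoin wall xyloglucan, 0 were called, XTH26, XTH18 and XTH32 were higher (1.17, 0.46 and 0.56) and XTH21 lower (-0.34) at an unadjusted p under 0.05, with the same shares over all probe sets, and XTH32 had near equal differences of 0.54 and 0.58. The family median was 0.071, and 0.27 without untreated replicate 1 and sucrose replicate 1.

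**Figure D4:**
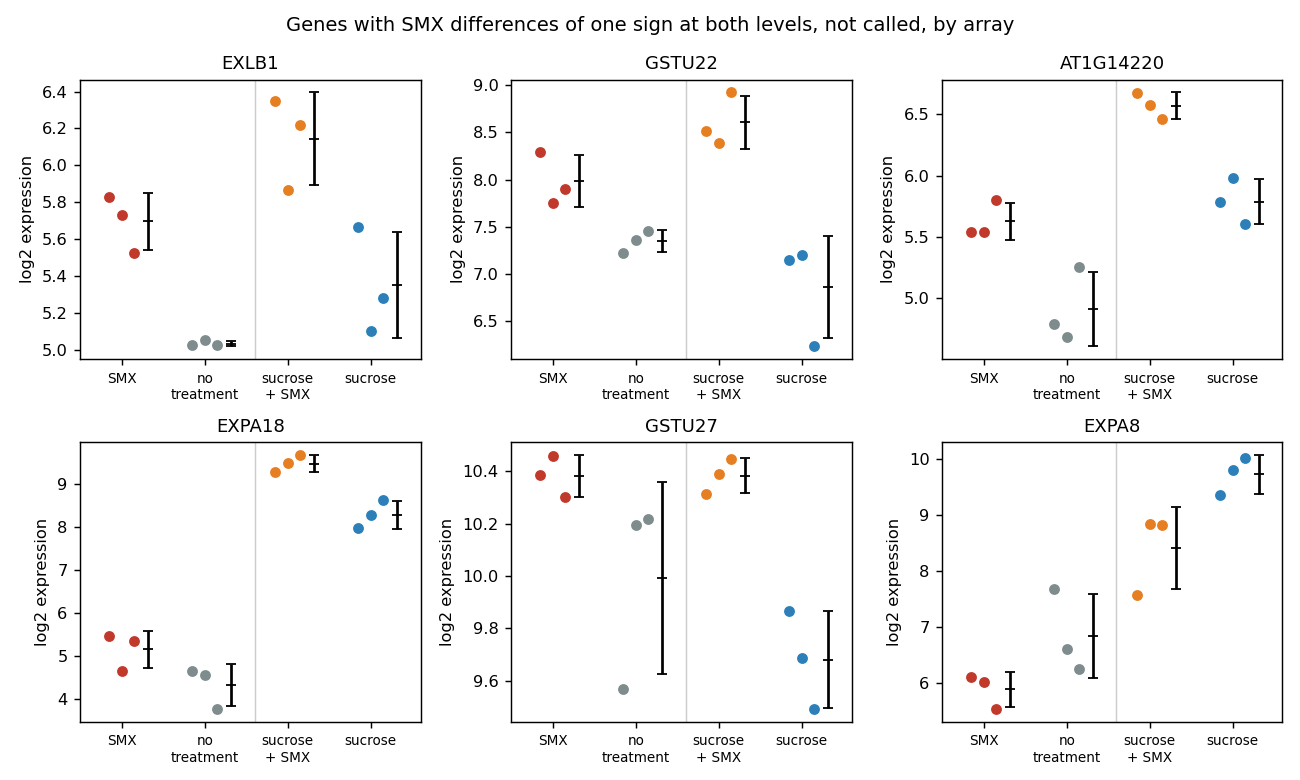
Log2 expression value by array of 6 genes with SMX differences of one sign at both levels that missed the threshold; points are single arrays and black bars are means ± SD of 3, with the SMX group left of its counterpart at each sucrose level. EXLB1, GSTU22, AT1G14220, EXPA18 and GSTU27 have higher SMX means at both levels and EXPA8 lower ones (differences of -0.96 and -1.32).

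Histone genes, whose products package DNA, had 3 measured members, of which 0 were called and 2, HTB2 and HTR12, were higher at an unadjusted p under 0.05 (2.87% of all probe sets). Of the 3, only HTB2 reached a mean of 5 in the SMX or the no-SMX arrays. The median SMX difference was 0.31 (0.42 without sucrose and 0.18 with it), which is the value of MGH3, a gene near the lowest value on most arrays. HTB2, a histone H2B gene, had 10.27, 10.19 and 10.06 in SMX arrays, against 9.98, 9.72 and 9.80 in untreated arrays, and 9.50, 9.53 and 9.72 with sucrose plus SMX, against 9.06, 9.34 and 9.44 with sucrose alone. The SMX arrays were higher with no overlap at both levels, by 0.34 and 0.31 (mean 0.32, SE 0.0799, adjusted p = 0.419). HTR12, the centromeric histone H3, differed by 0.30 at a low level and MGH3, a male-gamete histone H3, by 0.31 with overlap at both levels and 8 of 12 arrays within 0.1 of the lowest value. The list of the cell cycle and DNA replication names 12 loci, most of which were not measured. Its 3 measured members were PRL, KINESIN-12B and KINESIN-13A, of which 0 were called. The median was 0.012, the value of PRL.

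Sugar starvation genes, which rise when carbon runs short, had the lowest list median. Of 5 measured members, 0 were called, 3 were lower at an unadjusted p under 0.05 (2.57% of all probe sets), 4 had negative differences at both levels, and the median was -0.42 (-0.070 without sucrose and -0.53 with it). AKINBETA1, a subunit of the energy-sensing SnRK1 kinase, differed by -0.40 and -0.44 at the 2 levels (mean -0.42, adjusted p = 0.899). IVD and MCCA, which break down leucine, differed by -0.29 and -0.74, and by -0.02 and -1.46. MCCA had 7.42, 7.46 and 7.28 with sucrose plus SMX, against 9.99, 8.20 and 8.36 with sucrose alone. The highest of these was sucrose replicate 1, the array that lay apart from its group. Late embryogenesis and seed storage genes had a median of -0.20 over 8 members with 0 called. Their lowest p was that of AtLEA4-1, a late embryogenesis abundant protein of drying seeds, which had 7.42, 7.46 and 7.90 in SMX arrays, against 9.13, 8.16 and 8.39 in untreated arrays, and 7.17, 7.51 and 6.82 with sucrose plus SMX, against 7.51, 7.77 and 8.32 with sucrose alone. Its SMX arrays were lower by differences of -0.97 and -0.70 (mean -0.84, SE 0.219, adjusted p = 0.465), with no overlap at either level.

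Auxin response genes did not share a direction: of 9 measured, 0 were called and the median was 0.032 (0.080 and -0.087), or -0.16 without untreated replicate 3. LBD29, a transcription factor of lateral root formation, differed by 1.37 without sucrose and -0.52 with it, and IAA29, a repressor of auxin signalling, by 0.42 and -1.46. The 9 autophagy genes had a median of 0.019. Over all 41 lists, 247 probe sets were members and 1 of them was called, UGT85A5, against 0.0923% of all probe sets.

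**Figure D5:**
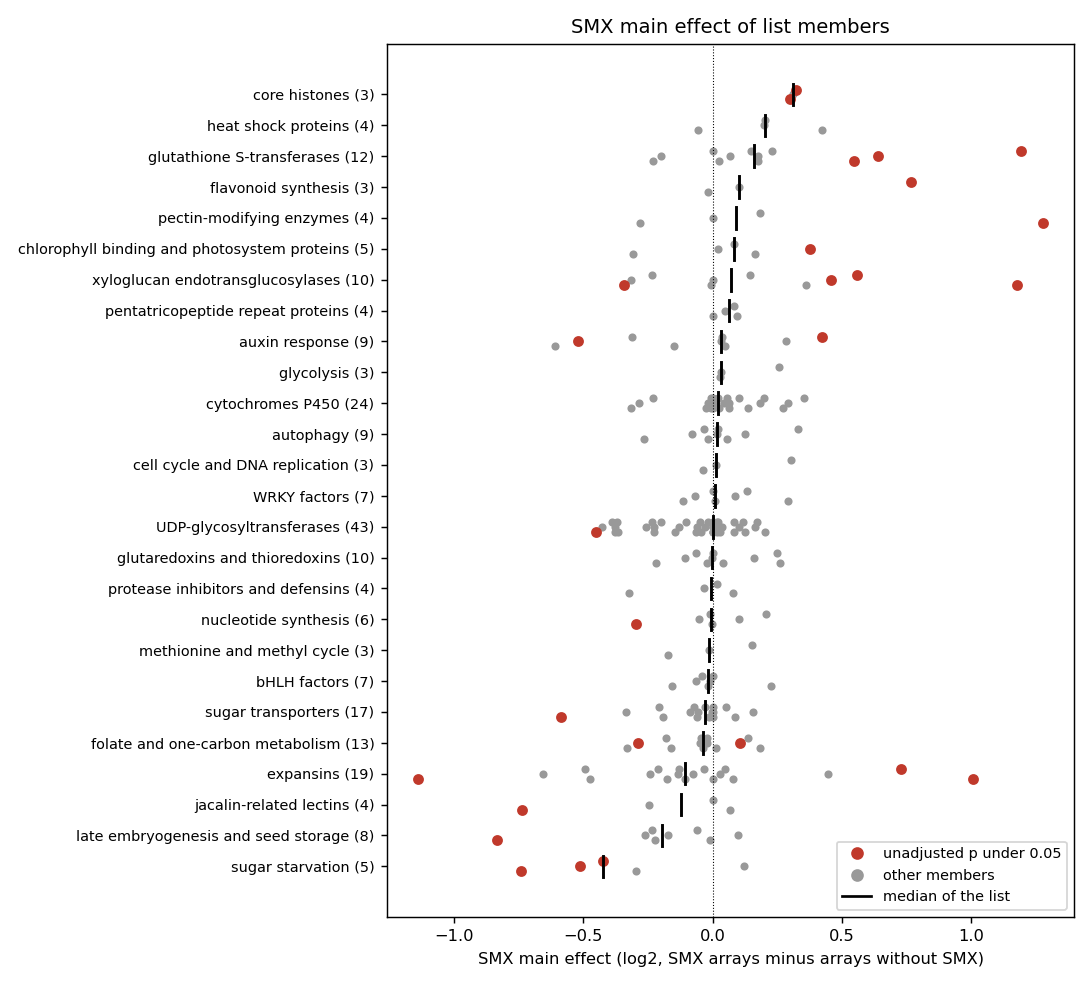
SMX difference (log2) of each measured member of the gene lists, with the list median marked; lists run down the page with the number of members in brackets, and red points have an unadjusted p under 0.05. Core histones have the highest median (0.31, over 3 members of which 1 reached a mean of 5) and sugar starvation genes the lowest (-0.42), while the folate list is centred near 0 (-0.037).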

How the data were processed

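RNA of 12 whole-seedling samples was hybridised to 1 Affymetrix ATH1 array each. The authors deposited 1 log2 value per probe set and array. Per the submitters' processing notes GCRMA and limma were used; no version or order of steps is given there, and the log base was read from the range of the values (2.12 to 15.7). No depth is defined for an array. Here 64 control probe sets were left out and limma (3.58.1, R 4.3.3) was fitted to the 4 groups with lmFit and eBayes, and the p-values were adjusted over 22746 probe sets by the Benjamini-Hochberg method and called under 0.05. The mean of the 2 within-level SMX differences was the tested contrast. All fold differences are on the log2 scale. No filter on low values was used except as an alternative, and dim probe sets understate differences. Probe sets were named from the array platform's gene annotation, with symbols brought up to date from RefSeq (TAIR10.1) by gene ID: 13436 probe sets have a current locus. Of 26 lists with at least 3 measured members, counts and medians were taken with no set test. Of 156 loci named in the lists, 37 were measured. Gene roles are background knowledge.

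Named were one-gene probe sets called with the same sign at both levels and a mean over the SMX or the no-SMX arrays that reached 5 (up to 15 in each direction), called members of lists, 2 listed loci of the target enzyme and, as fewer than 10 were found, the 10 smallest p that missed the threshold. The members, lists and rules were chosen with earlier results of these data known. The labels call the replicates biological and give no shared batch for a number. For that reason the numbers were not taken as pairs. Deviations of same-numbered samples from their group means correlated above 0.1 in 6 of 18 pairs, and in 4 of the 6 pairs within a sucrose level (0.032 to 0.22). These correlations do not settle whether the samples were paired. With the replicate number as a block within each sucrose level, 0 probe sets were called. Alternatives were filters on the mean, quantile normalization, median centring, a replicate block (over all arrays and within each sucrose level), an additive model, the spike-in score as a covariate, trend with robust, one-gene probe sets, a size limit, leaving out arrays, and separate fits.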

Additional observations from a re-analysis of the deposited data

Results flagged for a closer look

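For 12 of the 21 called probe sets, the test of the difference between the sucrose levels was itself past the threshold, so their mean SMX difference does not describe either level. The SMX difference was more positive on sucrose medium for 257008_at by 4.84 (adjusted p = 0.0397), for 260623_at by 3.66 (adjusted p = 0.00102), for AT2G43620 by 2.91 (adjusted p = 0.0397), for AT5G40590 by 2.31 (adjusted p = 0.0397), for AT1G74010 by 2.25 (adjusted p = 0.0488), for AT5G12420 by 1.51 (adjusted p = 0.044), for 250541_at by 1.40 (adjusted p = 0.0488) and for UGT85A5 by 0.90 (adjusted p = 0.0381). It was more negative there for 260152_at (-3.81, adjusted p = 0.0254), AT1G41750 (-1.19, adjusted p = 0.0397), 247165_at (-0.50, adjusted p = 0.0397) and AT5G37620 (-0.35, adjusted p = 0.0261). UGT85A5 and AT5G37620 had log2 values under 3.2 on all arrays, close to the lowest value. 250541_at was within 0.1 of the lowest value on 8 of 12 arrays. Groups of 3 arrays are too small for the test of single outlying samples.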

How the results depend on the processing

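The main count was 21 (18 higher, 3 lower). Tested only above a mean of 6, 8 were called (5 higher) and 66 probe sets did not overlap in the same direction at both levels. Quantile normalization and the spike-in covariate each gave 6 lower. The replicate block gave 9 (8 higher, 1 lower), 5 on sucrose-free medium, 28 on sucrose medium and 1 for the difference between levels; 8 of the 9 were among the 21, and CML41, AT2G41730 and AT5G40590 were not (adjusted p = 0.135, 0.0658 and 0.0834). With the block within each sucrose level, added after seeing the data and with fewer residual degrees of freedom, 0 were called (0 higher, 0 lower, 1590 at an unadjusted p under 0.05), 0 on sucrose-free medium, 2 on sucrose medium and 0 for the difference between levels; AT2G16630 had an adjusted p of 0.166 and AT1G76590 of 0.06. Deviations of same-numbered samples correlated between -0.36 and 0.22 over 18 pairs, and between 0.032 and 0.22 over the 6 within a level; 8 of 12 arrays correlated best with their own number, a hint of pairing from the data and not from the design. The additive model, which puts a difference between levels into the spread, called 1 higher and 0 lower (1070 at an unadjusted p under 0.05). Fits of only the 6 arrays of a level called 0 and 0, against 19 and 43 called in the joint fit. The 6-array fits have fewer residual degrees of freedom. In the joint fit 1510 and 1256 probe sets had an unadjusted p under 0.05. Among one-gene probe sets, 60 did not overlap in the same direction and 57 in opposite directions. Without untreated replicate 1 and sucrose replicate 1 together, chosen after seeing the data, 37 were called (23 lower), 453 and 360 did not overlap, 40 were called on sucrose-free medium and 29 for the difference between levels. Leaving out 1 array gave 14 to 51 called, 8 to 39 higher, 2 to 23 lower, 137 to 289 and 142 to 250 without overlap in the same and in opposite directions, 9 to 70 on sucrose-free medium, 26 to 52 on sucrose medium and 7 to 48 for the difference between levels. AT2G16630 was called in 22 of 23 alternatives, all but the block within levels, with a difference of 1.30 to 1.42. AT5G04120 was called in 20 of 22, AT1G76590 in 19, AT1G74010 in 18 and AT2G41730 in 9. None of the 21 called probe sets changed sign in the alternatives that were run.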

Other observations

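Some genes with SMX differences of the same sign at both levels lie next to each other on a chromosome. Of 46 genes with an unadjusted p under 0.05 at both levels and the same sign, 3 pairs were neighbours with 0 protein-coding genes between them in the RefSeq annotation, against 0 pairs among the 33 genes with opposite signs, a contrast that was not tested. Of 60 genes whose arrays did not overlap in the same direction at both levels, and of 47 with an unadjusted p under 0.001 for the mean SMX difference, 1 pair each were neighbours, AT1G76590 and AT1G76600. The pairs were noticed after the values were seen, and none of the members but AT1G76590 was called. AT1G76590 and AT1G76600 were both lower with SMX. BGLU28 and BGLU15, beta-glucosidases of a family that frees sugars from conjugates, were both higher. BGLU15 had 7.63, 7.67 and 7.46 in SMX arrays, against 7.12, 7.51 and 6.62 in untreated arrays, and 8.83, 8.88 and 8.76 with sucrose plus SMX, against 8.18, 7.99 and 8.02 with sucrose alone. Its mean difference was 0.63 (adjusted p = 0.276), with 0.50 and 0.76 at the 2 levels. BGLU28 differed by 1.29 and 3.56 (mean 2.42, adjusted p = 0.0835), and its mean with sucrose plus SMX was 5.77, against 2.21 with sucrose alone. AT1G21670 and AT1G21680 were both lower, with mean differences of -0.31 (-0.26 and -0.37) and -0.68 (-0.59 and -0.77). Near-identical neighbours can share probe signal, and whether these probe sets do was not tested.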
